A study of Mus musculus with 33 samples.

Results

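The regions described here were H3K9me3 domains of wild-type (WT) E14 mouse embryonic stem cells (mESC) that had no counterpart in Uhrf1 knockout (KO) mESC. They were chosen by the H3K9me3 lists themselves: a WT domain was taken when it was shorter than 300 kb and shared no base with any KO H3K9me3 domain. This rule selected 4512 of 11285 WT domains, or 4512 of the 10710 domains under 300 kb, and the remaining 6198 domains under 300 kb, which overlapped KO H3K9me3, are called retained. Without the length limit, 40.2% of the WT domains had no KO overlap. The study profiled histone marks and transcription factors by chromatin immunoprecipitation and sequencing (ChIP-seq) in WT and Uhrf1 KO mESC kept with leukemia inhibitory factor on gelatin or feeder-coated plates, and in embryoid bodies (EBs), cell aggregates that differentiate in culture, at weeks 1, 2 and 3. The KO cells, which lack Uhrf1, were a single line, and the WT cells were the E14 line. Both were obtained from the same outside laboratory. Each genotype, stage and antibody was represented by 1 library, so no difference between genotypes had a replicate check, and the 95% intervals below cover only the counting of domains or sites. As a check of the cell type, 6 of 7 pluripotency markers (Pou5f1, Nanog, Sox2, Zfp42, Klf4 and Dppa4, not Esrrb) carried H3K4me3 within 2 kb of their start in WT mESC, and the same number did in KO mESC.

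Trimethylation of histone H3 at lysine 9 marks heterochromatin, which is compact and mostly silent, and is abundant over repeats and gene-poor DNA. Uhrf1 binds H3K9me3 and hemimethylated DNA and brings the maintenance DNA methyltransferase Dnmt1 to replicating chromatin. H3K4me3 marks active or poised promoters, H3K27me3 is laid down by Polycomb complexes, and promoters that carry both are called bivalent. Sox2, Nanog and Oct4 are the core transcription factors of pluripotency.

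Sequences are shown for the tallest Sox2 summit and the tallest Nanog summit in absent domains that were called in KO and not in WT mESC. The Plcg2 and Sugp2 sites were added as joint sites, where a Sox2 and a Nanog summit of this kind lay together. The presence of Nanog at these joint sites was thus set by the choice and is a description. Both lie on chromosome 8, which stood apart in H3K9me3 coverage, as described below. The sequences give the bases around called summits inside the absent domains. Which bases were bound was not determined. A KO-only summit had no WT summit of the same factor within 100 bp. Each run is a stretch of the plus strand of NCBIM37 (mm9) centred on a summit, and capitals mark the core letters bound by Sox proteins, CATTGT or its reverse complement, where present. The windows were also searched on both strands for the octamer ATGCAAAT bound by Oct4, which was in none of these 4.

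Neurog1 domain, chr13:56317547-56317647: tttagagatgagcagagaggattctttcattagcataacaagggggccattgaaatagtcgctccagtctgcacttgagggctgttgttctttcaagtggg
Auts2 side, chr5:133204683-133204783: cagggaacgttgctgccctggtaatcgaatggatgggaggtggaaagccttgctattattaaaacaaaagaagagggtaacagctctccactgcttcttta
Plcg2 side, chr8:120017577-120017677: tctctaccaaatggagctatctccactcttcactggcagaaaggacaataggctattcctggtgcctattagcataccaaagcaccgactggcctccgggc
Sugp2 intron, chr8:72798204-72798304: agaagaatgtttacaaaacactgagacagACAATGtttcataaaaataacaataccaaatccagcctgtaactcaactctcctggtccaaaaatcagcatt

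The Neurog1-domain summit was the tallest KO-only Sox2 summit in an absent domain, with 72 reads, and a KO-only Nanog summit of 13 reads lay within 100 bp. It was intergenic, 34.3 kb from Neurog1, a neuronal basic helix-loop-helix factor, and lay in WT H3K27me3 but in no H3K4me3 domain of either genotype. The tallest KO-only Nanog summit had 64 reads, with a Sox2 summit of 54 reads beside it, and was intergenic, 186 kb from Auts2, with none of the WT or KO H3K4me3 or WT H3K27me3 domains over it. At the third site, 4.56 kb from Plcg2, which encodes a phospholipase, Sox2 reached 66 reads and Nanog 20 reads, a WT Oct4 summit lay within 100 bp, and H3K4me3 was present in both genotypes. The fourth site, in an intron of Sugp2, had 60 Sox2 reads and 31 Nanog reads, and a WT Sox2 summit lay within 1000 bp of it, so it was KO-only at 100 bp and not at 1000 bp. The Sox core letters were in 15.1% (12.2 to 18.4) of the 511 KO-only Sox2 windows in absent domains, against 11.3% (10.1 to 12.6) of 2393 in retained domains and 12.9% (12.4 to 13.4) of all 20675 KO Sox2 windows. The octamer was in 5.48% (3.82 to 7.81), 4.01% (3.30 to 4.87) and 3.31% (3.08 to 3.57) of the same windows. The intervals of absent and retained domains overlapped for both motifs.

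The absent domains were short. Their length ran from 1.8 kb, which is 1 bin of the caller, to 295 kb with a median of 23.4 kb, against 48.6 kb in retained domains. They held 148 Mb, or 15.0% of the DNA in WT H3K9me3 domains. The share of WT domains absent in KO was 60.6% (58.7 to 62.5) among domains of 1.8 to 14.4 kb and 12.9% (11.5 to 14.3) among domains of 90 to 299 kb. Length was part of the rule, so these shares are a description. The KO list was not smaller in extent: it held 3118 domains with a median of 140 kb, which covered 1086 Mb, against 11285 domains with a median of 37.8 kb and 988 Mb in WT. Its deposited level was lower, with a median of 10.9 reads per bin (lowest 9.46) against 15.0 (lowest 10.3) in WT. Whether these levels were scaled to depth is not stated. Whether an absent domain lost H3K9me3 or was only not called in KO was not tested. Retained domains were mostly covered whole: the median share covered by KO H3K9me3 was 100%.

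**Figure D1:**
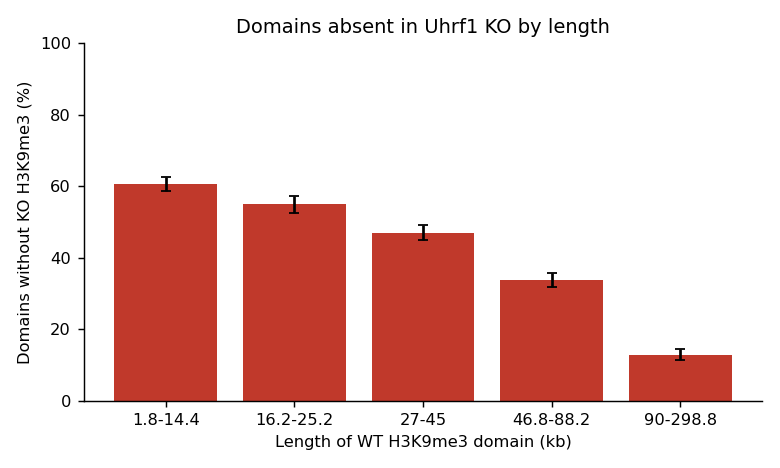
The bars give the share of WT H3K9me3 domains without KO H3K9me3 (%, y axis) in 5 groups of domain length (kb, x axis), with 95% Wilson intervals. The share falls from 60.6% in the shortest group to 12.9% in the longest.

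The H3K9me3 level in WT was similar in absent and retained domains. The mean number of reads per bin, the value deposited for each domain, ran from 11.97 to 55.5 with a median of 15.3 in absent domains and had a median of 14.9 in retained domains. Within each of the 5 length groups the order turned round, and absent domains had the lower median, for example 18.5 against 18.8 in the shortest group and 13.5 against 14.1 in the longest. The 5 absent domains of highest level were all 1.8 kb long. They ran from 50.1 to 55.5 reads per bin and included chr13:56199601-56201400 inside H2afy, which encodes the histone variant macroH2A1, chr9:123370201-123372000 touching Lars2, a mitochondrial leucyl-tRNA synthetase, and chr3:96667201-96669000 inside Pdzk1, a scaffold protein. The other 2, chr7:71609401-71611200 and chr19:15465601-15467400, were intergenic, 35.4 kb from Apba2 and 512 kb from Psat1.

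At the length threshold, chr12:60593401-60888600 (295 kb, 14.02 reads per bin, with Fbxo33 273 kb away as the nearest coding gene) and chr8:89062201-89355600 (293 kb, 15.4 reads per bin, with the starts of Abcc12, Lonp2, Gm10638 and Siah1a) lay just inside and were the 2 longest absent domains. The next longest were chr8:117086401-117349200 (263 kb) inside Wwox, an oxidoreductase gene, chr15:63167401-63424800 (257 kb), 183 kb from Gsdmc, and chr7:82009801-82254600 (245 kb), 5.18 kb from the synaptic vesicle gene Sv2b. Just outside were chr7:11095201-11404800 (310 kb, 14.4 reads per bin), which held 4 vomeronasal receptor genes, and chr6:6562801-6888600 (326 kb, 13.6 reads per bin), which held the homeobox genes Dlx5 and Dlx6. In all, 19 domains of 300 kb or longer had no KO overlap.

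Most absent domains lay far from any KO domain. The median gap was 190 kb, 1.97% of the absent domains (1.61 to 2.42) had KO H3K9me3 within 10 kb, and 8.71% (7.92 to 9.57) lay over 1 Mb away. In 7 cases the absent domain adjoined a KO domain with no gap, and the one of these with the highest WT level was chr3:65824201-65833200, 24.3 kb from Veph1. The farthest pair were on the X chromosome, chrX:17589601-17661600 at 12807 kb and chrX:17910001-17929800 at 12573 kb, the latter 52.9 kb from Kdm6a, which encodes an H3K27 demethylase.

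Absent domains were spread unevenly over the chromosomes. On 17 autosomes the share absent ran from 31.1% on chromosome 10 to 69.7% on chromosome 19. Chromosome 8 had 70.5% (158 of 224), the X chromosome 90.0% (207 of 230) and chromosome 11 none of 388. These 3 chromosomes also stood apart in how much of them the lists covered. H3K9me3 covered 81.0% of chromosome 8 in WT and 30.6% in KO, and 76.2% of chromosome 11 in WT and 96.3% in KO, where the longest domain reached 26415 kb. On the X chromosome the values were 2.30% and 0.298%. Other lists showed the same chromosomes: WT H3K27me3 covered 64.1% of chromosome 8 and 56.2% of chromosome 11, against 22.0 to 44.96% of the 17 other autosomes, and WT H3K4me3 covered 12.6% and 23.4%, against 5.12 to 10.8%. The part of these chromosome-wide differences in membership was not tested, and the length-averaged differences and the summit densities of absent and retained domains in mESC below are also given without chromosomes 8, 11 and X, which leaves 4147 absent and 5721 retained domains.

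**Figure D2:**
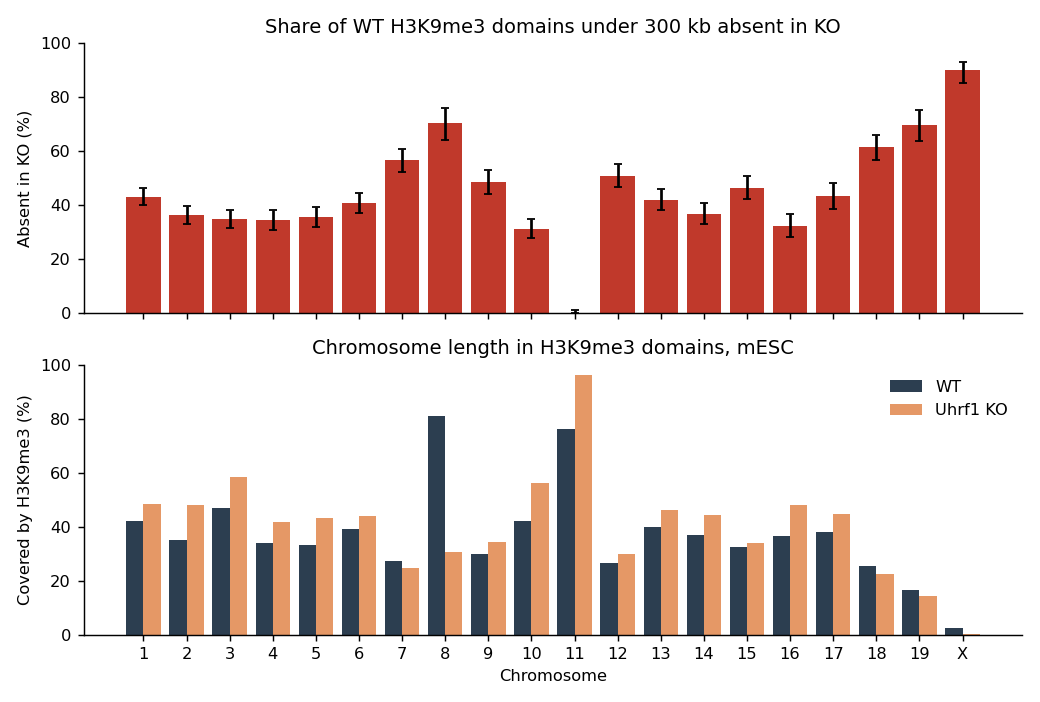
The upper bars give the share of WT H3K9me3 domains under 300 kb absent in KO (%) with 95% Wilson intervals for each chromosome, and the lower bars the share of chromosome length (%) in H3K9me3 domains of WT and Uhrf1 KO mESC. Chromosome 11 has no absent domain and 96.3% KO coverage, and the X chromosome has 90.0% absent and under 3% coverage in both.

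H3K4me3 was less frequent in absent than in retained domains in both genotypes. In WT mESC 13.4% of absent domains (603 of 4512, 12.4 to 14.4) and 29.9% of retained domains (28.8 to 31.05) overlapped H3K4me3, where 22.9% of all WT H3K9me3 domains under 300 kb did. In KO mESC the shares were 9.20% (8.39 to 10.1) and 24.6% (23.5 to 25.7), where 18.1% of all did. Averaged over 5 length groups, the difference was -16.01 percentage points (-17.71 to -14.31) in WT and -15.80 (-17.36 to -14.24) in KO. Without chromosomes 8, 11 and X it was -13.23 and -13.11 points. Absent domains thus had less H3K4me3 at matched length already in the WT cells. The share did not rise in KO: 362 absent domains had H3K4me3 in both genotypes, 241 in WT only, 53 in KO only and 3856 in neither. Of those with H3K4me3 in WT, 60.03% (56.1 to 63.9) had it in KO, against 74.7% (72.7 to 76.6) of retained domains. These shares kept in KO were not matched for length or given without chromosomes 8, 11 and X. Chromosome 8 held 105 of the 603 absent domains with WT H3K4me3, and chromosome 11 had no absent domain.

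The 53 domains with H3K4me3 only in KO were a small group, and their highest-ranked members were chosen on that KO signal. Chr3:79104601-79129800 (KO H3K4me3 23.1 reads per bin, nearest coding gene Gm17359 at 19.5 kb) was not called for H3K4me3 in KO EBs at any week, but was in WT EBs at weeks 2 and 3. Chr13:102412801-102447000, 3.71 kb from Pik3r1, the regulatory subunit of phosphoinositide 3-kinase, had 23.0 reads per bin, and H3K4me3 was called there in KO EBs at weeks 1, 2 and 3 and in WT EBs at weeks 2 and 3. Chr10:67935601-67971600 lay inside 1700040L02Rik with 20.6 reads per bin, chr14:28449001-28521000 inside Erc2, a presynaptic scaffold gene, with 17.1, and chr10:43369201-43389000 had 16.0. Over the 53 domains the median was 9.20 reads per bin, below the 11.2 of the whole KO list. Of them, 4 held a coding gene start.

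H3K27me3 moved the other way with length taken into account. In WT mESC it overlapped 57.0% of absent domains (55.5 to 58.4) and 59.99% of retained domains (58.8 to 61.2), where 58.7% of all domains had it, but the length-averaged difference was 10.27 points (8.27 to 12.27), and 12.07 (9.98 to 14.15) without chromosomes 8, 11 and X. The excess was 8.49 to 13.9 points in the 4 shorter length groups and 0.436 points in the longest. In KO mESC 4.14% of absent (3.601 to 4.77) and 5.84% of retained domains (5.28 to 6.45) overlapped it, where 5.13% of all did, a length-averaged difference of -1.69 points (-2.61 to -0.77) that became 0.0787 (-0.817 to 0.975) without those chromosomes. Of the absent domains with H3K27me3 in WT, 6.23% (5.36 to 7.23) had it in KO, and 8.50% (7.65 to 9.44) of retained ones did. These shares kept in KO were also not matched for length or given without chromosomes 8, 11 and X. The KO list held 722 H3K27me3 domains and the WT list 8161 in all, with a lowest signal of 0 in KO. Combining both marks, 407 absent domains (9.02%) carried H3K4me3 and H3K27me3 in WT and 39 (0.864%) in KO. Absent domains with neither mark numbered 1746 (38.7%) in WT and 3949 (87.5%) in KO. These combined states were counted in absent domains only, so they are not set against retained domains. H3K27me3 alone fell from 58.7% to 5.13% over all domains under 300 kb, and from 59.99% to 5.84% in retained ones.

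Uhrf1 windows, 10 kb stretches enriched over input in WT mESC, met 19.6% of absent (18.5 to 20.8) and 31.1% of retained domains (30.0 to 32.3), where 26.3% of all did. With length averaged the sign changed to 2.03 points (0.57 to 3.50). It was 1.33 (-0.20 to 2.87) without chromosomes 8, 11 and X and -0.55 (-2.37 to 1.27) within chromosomes, so no difference at matched length held across the settings. By length group it was 0.837 to 4.33 points in the 4 shorter groups and -5.69 in the longest, where the sign was reversed. Both of the domains with most windows, 6 each, were on the X chromosome: chrX:99910801-100031400, which held the start of Dmrtc1c1, and chrX:72091801-72235800, which touched Gab3. Chr6:73771201-73863000 and chr5:42472801-42598800, the latter inside Gm16223, had 4 each, and chr9:88851601-88873200, with the start of Bcl2a1a, a Bcl2-family gene, had 3. Absent domains with a Uhrf1 window had a median length of 37.8 kb and those without 19.8 kb, and 8.13% (6.50 to 10.1) against 14.6% (13.5 to 15.8) carried WT H3K4me3.

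**Figure D3:**
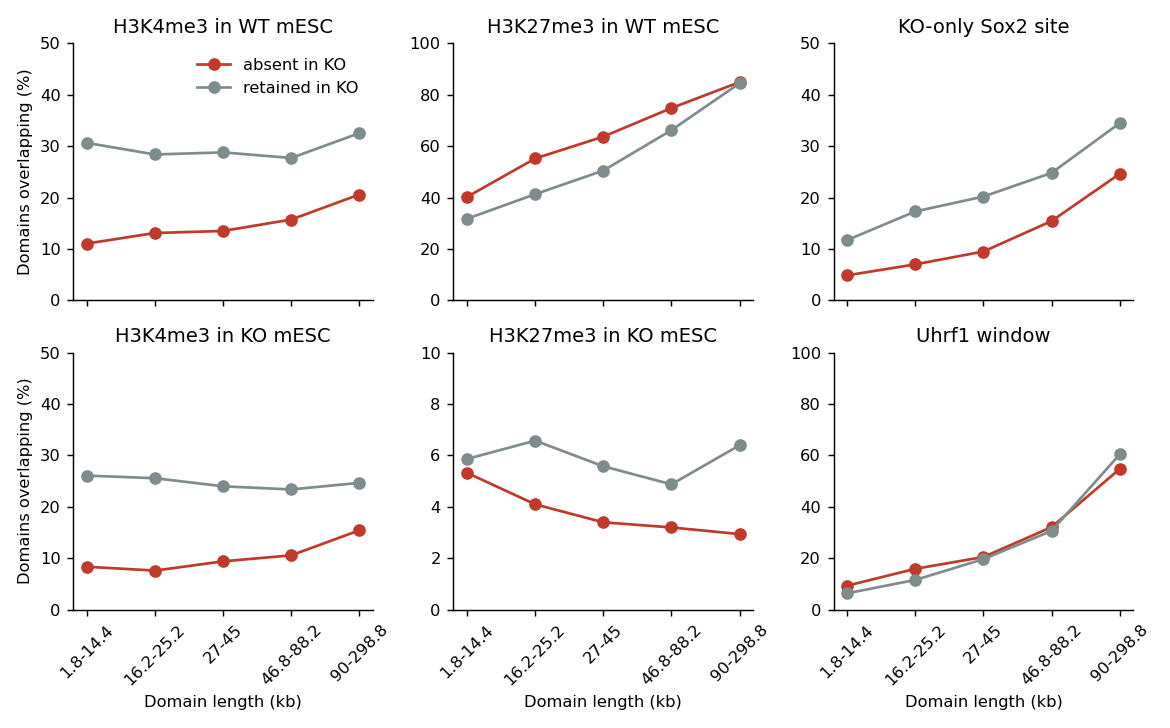
Each panel gives the share of domains (%, y axis, with a different range in some panels) that overlap a mark, a KO-only Sox2 summit or a Uhrf1 window in 5 groups of domain length (kb, x axis), for domains absent (red) and retained (grey) in KO. H3K4me3 and KO-only Sox2 are lower in absent domains in every group, and WT H3K27me3 is higher in the 4 shorter groups. The Uhrf1 window difference, absent minus retained, is 0.837 to 4.33 points in the 4 shorter groups and -5.69 in the longest.

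Sox2 and Nanog summits present only in KO were less frequent in absent than in retained domains. A KO-only Sox2 summit lay in 9.24% of absent domains (417 of 4512, 8.43 to 10.1) and 23.8% of retained domains (22.7 to 24.8), where 17.6% of all had one, and the length-averaged difference was -9.05 points (-10.43 to -7.68). For Nanog the shares were 6.47% (5.79 to 7.23) and 16.3% (15.4 to 17.3), where 12.2% of all had one, with a difference of -5.96 points (-7.13 to -4.79). Without chromosomes 8, 11 and X these were -7.30 and -5.28 points. Per Mb, KO-only Sox2 summits numbered 3.44 (3.15 to 3.76) in absent domains, 5.25 (5.04 to 5.47) in retained domains and 7.82 (7.68 to 7.95) outside WT H3K9me3. KO-only Nanog summits numbered 2.30 (2.07 to 2.56), 3.10 (2.94 to 3.26) and 3.59 (3.50 to 3.68). Without chromosomes 8, 11 and X the gap was smaller, with 3.27 (2.97 to 3.59) KO-only Sox2 summits in absent and 4.08 (3.89 to 4.28) in retained domains, and 2.18 (1.94 to 2.45) and 2.62 (2.47 to 2.78) for Nanog. WT Sox2 summits already followed part of this order, with 1.50 (1.31 to 1.71) in absent and 2.38 (2.24 to 2.53) in retained domains, and 1.27 (1.09 to 1.48) and 1.82 (1.70 to 1.957) without those chromosomes. The other part differed: over all chromosomes, WT Sox2 summits outside WT H3K9me3 numbered 1.91 (1.85 to 1.98), below retained domains. WT Nanog summits numbered 0.654 in absent domains, 1.15 in retained domains and 0.856 outside WT H3K9me3. The lists differed in size, 5190 WT and 20755 KO Sox2 summits and 2390 WT and 10632 KO Nanog summits, and the part of that difference in the KO-only counts was not tested. Oct4 went the other way, with 674 WT and 11 KO summits in absent domains and 12898 and 576 in the whole lists.

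**Figure D4:**
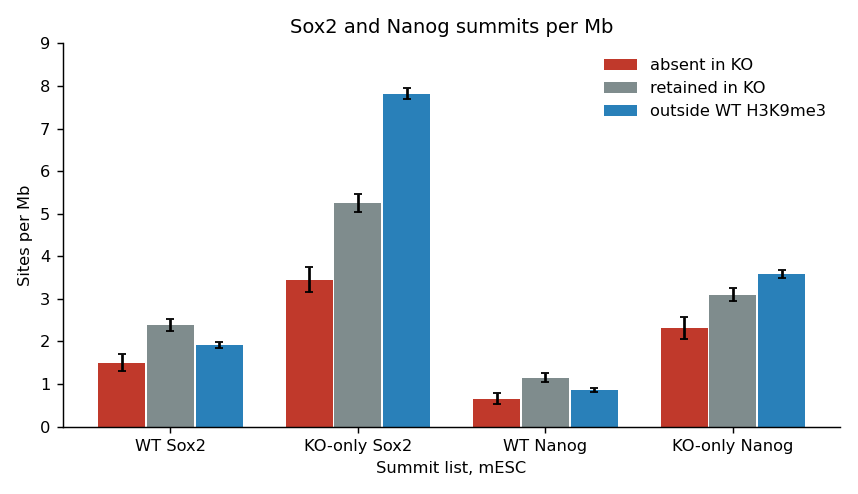
Bars give Sox2 and Nanog summits per Mb (y axis) in domains absent in KO, domains retained in KO and DNA outside WT H3K9me3, for the WT lists and for summits present only in KO, with exact 95% Poisson intervals. KO-only Sox2 reaches 3.44 per Mb in absent domains and 7.82 outside WT H3K9me3.

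Of the 511 KO-only Sox2 summits in absent domains, 29.4% (25.6 to 33.4) lay in WT H3K4me3, 23.1% (19.6 to 26.9) in KO H3K4me3 and 49.9% (45.6 to 54.2) in WT H3K27me3. In retained domains 47.8% (45.8 to 49.8), 42.5% (40.6 to 44.5) and 36.3% (34.4 to 38.3) did. A KO-only Nanog summit lay within 100 bp of 28.4% (24.6 to 32.4) of those in absent and 23.1% (21.4 to 24.8) of those in retained domains. Within 2 kb of a coding gene start lay 17.8% (14.7 to 21.4) and 19.8% (18.3 to 21.5). For KO-only Nanog that last share was 4.09% (2.45 to 6.75) of 342 summits in absent and 4.18% (3.25 to 5.35) in retained domains. The intervals of absent and retained domains overlapped for gene starts with both factors. None of these summit shares was computed without chromosomes 8, 11 and X. Leaving those out would keep 445 of the 511 KO-only Sox2 summits in absent domains and 1712 of the 2393 in retained domains. The part of these chromosomes in the shares was not tested.

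The domain with most KO-only summits was chr13:56291401-56370600 (79.2 kb), which held Neurog1 and 6 Sox2 and 6 Nanog summits. H3K4me3 was called in it in WT but not in KO mESC, and H3K27me3 in WT mESC and in EBs of both genotypes at weeks 1, 2 and 3. Chr17:15472801-15530400 (57.6 kb) held Dll1, a Notch ligand, with 4 Sox2 and 3 Nanog summits, and H3K4me3 and H3K27me3 were called there in EBs of both genotypes at all 3 weeks. Chr13:23664601-23767200 (103 kb) had 6 Sox2 summits and 1 Nanog summit over replication-dependent histone genes that included Hist1h1e, Hist1h3d and Hist1h4d. The remaining 2, chr12:17465401-17472600 (7.2 kb, nearest gene Nol10) and chr5:134172001-134276400 (104 kb, nearest gene Gatsl2), held 3 summits of each factor and no gene start. These domains were ranked by the summits, so their counts are a description.

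Gene starts were less frequent in absent than in retained domains. A protein-coding gene start lay in 10.2% of them (460 of 4512, 9.35 to 11.1) and in 21.5% of retained domains (20.5 to 22.5), where 16.7% of all held one, and the length-averaged difference was -4.33 points (-5.60 to -3.05). Without chromosomes 8, 11 and X it was smaller, -2.72 points (-3.98 to -1.46). The domain midpoint lay in a coding gene in 33.3% of absent (31.95 to 34.7) and 32.8% of retained domains (31.7 to 34.0), where 33% of all did, with a length-averaged difference of -4.38 points (-6.39 to -2.37), and of -3.24 (-5.33 to -1.15) without those chromosomes. By length group the midpoint difference was -10.5 points in the shortest, between -2.86 and -0.510 in the middle groups and 5.23 in the longest, where the sign was reversed. No coding gene touched 58.0% of the absent domains (56.5 to 59.4), and those without a start had a median gap of 84.0 kb to the nearest one. In the longest domains, at 90 to 299 kb, 25.4% of absent and 34.4% of retained domains held a start. Median G+C content was 40.9% in absent and 39.7% in retained domains, and CpG dinucleotides numbered 6.88 and 6.57 per kb. The G+C medians were both 40.9% in the shortest length group, and 40.3% in absent against 38.9% in retained domains in the longest.

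Of 22380 protein-coding genes, 611 (2.73%) started in an absent domain, and 2530 (11.3%) in a retained domain, and these are the backgrounds for the gene lists. None of 17 genes of the 2-cell stage, 30 imprinted genes and 21 pluripotency genes did, but lists of this size allow shares of up to 18.4%, 11.4% and 15.5%, which include the background. In retained domains 8 of the 17 (47.1%), 7 of the 30 (23.3%) and 2 of the 21 (9.52%) started. Of 25 germline genes silenced by methylation, 1 did, Slc25a31, an ADP/ATP carrier of the testis. Of 16 neuroectoderm genes, 3 did: Neurog1, Pax3, a neural crest regulator, and Tubb3, a neuronal tubulin. H3K4me3 was called within 2 kb of the Pax3 start in WT and not KO, at Tubb3 in both and at Neurog1 in neither. Of 20 mesoderm genes, 2 did, the heart regulators Gata4 and Tbx5, both without H3K4me3 and with H3K27me3 within 5 kb of the start in WT and KO. Retained domains held the starts of 3 germline, 1 neuroectoderm and 2 mesoderm genes of these lists. Among families, 11 of 67 histone genes (16.4%, 9.42 to 27.1) started in 3 absent domains of chromosome 13 and all 11 had H3K4me3 in WT and KO. Also there were 8 of 60 Serpin genes (13.3%, 6.91 to 24.2), such as Serpina1b and Serpina3k, which encode protease inhibitors of liver, in 6 domains with no H3K4me3 at their starts, and 7 of 100 keratin and keratin-associated genes, namely Krt6b and 6 Krtap genes. Retained domains held 2 histone starts (2.99%), 8 Serpin starts (13.3%) and 12 keratin and keratin-associated starts (12%). Zinc finger genes were rarer, with 4 of 396 (1.01%, 0.393 to 2.57): Zfp648, Zfp629, Zfp703 and Zfp319. Retained domains held 76 zinc finger starts (19.2%). Olfactory receptor genes had 27 of 1113 starts in absent and 275 (24.7%) in retained domains, none of the 27 with H3K4me3. No start of the 29 entries for heterochromatin and DNA methylation machinery lay in an absent domain. The same held for 331 vomeronasal receptor, 40 Hox, 36 protocadherin, 98 Cytochrome P450, 20 glutamate receptor and 30 Rhox genes. Their upper limits were, in the same order, 11.7%, 1.15%, 8.76%, 9.64%, 3.77%, 16.1% and 11.4%. Only the limit of the vomeronasal receptor genes lay below the background. Retained domains held 4, 59, 27, 1, 17, 6 and 0 of these starts. Defensin genes had 1 start in an absent domain (Defb48), cadherin genes 1 (Cdh17) and potassium channel genes 4 of 96. In retained domains these families had 8, 6 and 5 starts, in the same order. Neighbouring genes of a family shared domains and are not independent, and since 1 alignment was kept per read, domains over near-identical copies are uncertain.

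At the 611 gene starts in absent domains, H3K4me3 was called at 45.5% (41.6 to 49.5) in WT and 36.5% (32.8 to 40.4) in KO. It was present only in WT at 60 starts and only in KO at 5. At the 2530 starts in retained domains the shares were 46.8% (44.9 to 48.8) and 40.8% (38.9 to 42.8), and over all coding genes 63.1% and 56.9%. H3K27me3 within 5 kb was called at 62.4% (58.4 to 66.1) of the 611 starts in WT and 7.86% (5.98 to 10.3) in KO, against 59.1% (57.2 to 61.0) and 14.3% (13.0 to 15.8) in retained domains and 34.9% and 7.63% of all coding genes. Starts in absent and retained domains thus had overlapping intervals for H3K4me3 in both genotypes and for WT H3K27me3, and intervals that did not overlap for KO H3K27me3. These shares were not matched for length or given without chromosomes 8, 11 and X, and chromosome 11 had no absent domain. Starts in the same domain are not independent, which the intervals do not take into account. For whole domains the length-averaged KO H3K27me3 difference was -1.69 points, and 0.0787 without those chromosomes.

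In EBs the share of absent domains with H3K4me3 was highest at week 2, though in KO the intervals of weeks 2 and 3 overlapped. In WT EBs H3K4me3 overlapped 11.6% (10.7 to 12.6) at week 1, 26.5% (25.2 to 27.8) at week 2 and 17.7% (16.6 to 18.8) at week 3. In KO EBs the shares were 11.2% (10.3 to 12.2), 19.7% (18.5 to 20.9) and 18.2% (17.1 to 19.3). The H3K4me3 lists of these weeks held 18672, 39898 and 27350 domains in WT and 19041, 32702 and 28789 in KO. The part of list size in the H3K4me3 shares was not tested. All domains under 300 kb gave 19.3%, 37.1% and 27.7% in WT and 19.7%, 30.9% and 29.5% in KO, and absent domains stayed below retained ones in each of the 6 lists, with length-averaged differences from -17.11 to -10.67 points. Of the 3856 absent domains with no H3K4me3 in either mESC, 18.1% (16.9 to 19.4) had it in WT and 10.6% (9.67 to 11.6) in KO EBs at week 2. The order was reversed at week 1, with 2.88% (2.40 to 3.46) in WT and 4.43% (3.83 to 5.13) in KO EBs. At week 3 the shares were 7.86% (7.05 to 8.75) and 8.25% (7.42 to 9.16), with overlapping intervals. This follow-up was made for absent domains only.

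H3K27me3 in absent domains was rare at week 1 and higher later. In WT EBs it overlapped 11.04% (10.2 to 11.98) at week 1, 53.7% (52.3 to 55.2) at week 2 and 51.5% (50.1 to 53.0) at week 3, where all domains gave 13.8%, 60.6% and 52.7%. In KO EBs the shares were 13.9% (12.9 to 15.0), 28.2% (26.9 to 29.5) and 20.9% (19.7 to 22.1), where all gave 15.3%, 26.1% and 24.2%. With length averaged, absent exceeded retained domains by 10.31 points (8.31 to 12.31) in WT at week 3 and by 7.83 points (6.07 to 9.59) in KO at week 2. In the other 4 lists the interval included 0, but each had a setting where it did not. Without chromosomes 8, 11 and X the difference was 3.35 points (1.94 to 4.77) in KO at week 1 and 2.17 (0.467 to 3.87) in KO at week 3. On autosomes alone it was 3.03 (0.995 to 5.07) in WT at week 2, and among domains above the median level -2.54 (-4.30 to -0.780) in WT at week 1. Of the 2570 absent domains with H3K27me3 in WT mESC, 40.8% (38.9 to 42.7) had it in KO EBs at week 2 and 67.4% (65.6 to 69.2) in WT EBs. The order was reversed at week 1, with 20.7% (19.2 to 22.3) in KO and 16.8% (15.5 to 18.3) in WT EBs. At week 3 the shares were 32.1% (30.4 to 34.0) in KO and 69.8% (68.0 to 71.5) in WT EBs. Retained domains were not followed in this way. The week 1 H3K27me3 list of WT covered a median of 3.09% of 17 autosomes and the week 2 list 44.6%, and the part of list size in these shares was not tested.

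**Figure D5:**
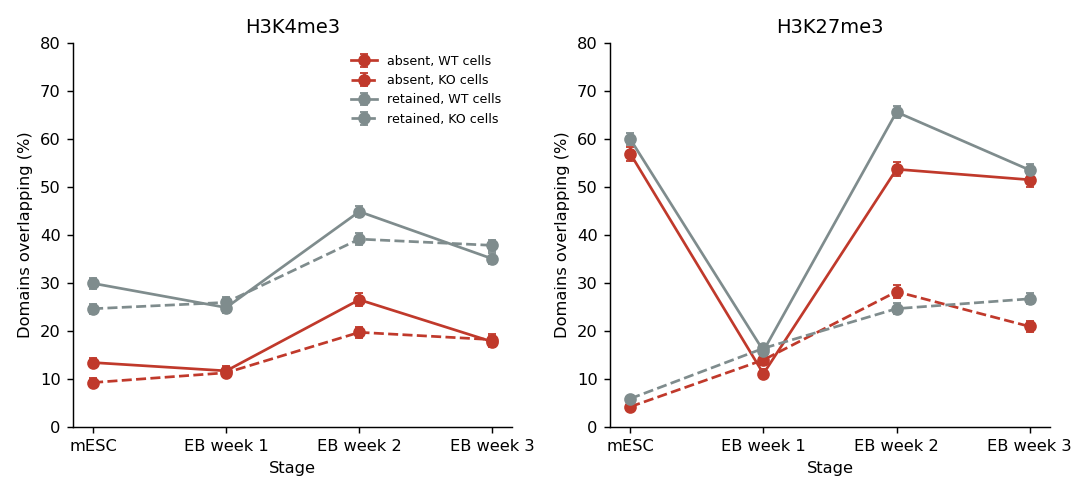
Points give the share of domains (%, y axis) that overlap H3K4me3 (left) or H3K27me3 (right) in mESC and EBs at weeks 1, 2 and 3, for domains absent (red) and retained (grey) in KO mESC, in WT (solid) and KO cells (dashed), with 95% Wilson intervals. H3K27me3 in absent domains falls to 11.04% in WT EBs at week 1 and stands at 53.7% at week 2, against 28.2% in KO EBs.

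Absent domains on the X chromosome and on chromosome 8 stood apart from the rest in several features. The 207 on the X chromosome had a median length of 10.8 kb, H3K4me3 in 0.483% (0.0853 to 2.69) and H3K27me3 in 14.01% (9.93 to 19.4) in WT mESC, Uhrf1 windows in 28.0% (22.3 to 34.5) and a coding gene start in 2.42% (1.04 to 5.53). The 158 on chromosome 8 had a median length of 37.8 kb, H3K4me3 in 66.5% (58.8 to 73.3), H3K27me3 in 53.8% (46.0 to 61.4), Uhrf1 windows in 8.23% (4.87 to 13.6) and a coding gene start in 37.3% (30.2 to 45.1). On all other chromosomes these shares were 11.98% (11.03 to 13.01) for WT H3K4me3, 59.2% (57.7 to 60.7) for WT H3K27me3, 19.7% (18.5 to 20.9) for Uhrf1 windows and 9.55% (8.69 to 10.5) for gene starts.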

How the data were processed

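ChIP-seq lists of WT and Uhrf1 KO mESC and EBs were used as deposited, 1 library per group, 25 lists from 33 samples. The 8 input samples were not used here. The authors aligned reads to mm9 with Bowtie2 2.1.0, 1 alignment per read, and called histone domains with RSEG against input. The deposited signal of a histone domain is its mean read count per bin, and the deposited score grows with its bins. Whether the signal was scaled to depth is not stated, so it was ranked within a list. Factor summits, with the reads at the summit as signal, were called with MACS. Uhrf1 windows, another kind of value, were deposited by the authors without a score.

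Overlap meant at least 1 shared base. Shares carry Wilson intervals, site densities exact Poisson intervals, and length-averaged differences weight 5 length groups by their absent domains. Python 3.11.15, numpy 2.4.6, scipy 1.17.1 and pandas 2.3.3 were used, and the overlap and weighting steps were tested on simulated data. Genes came from GENCODE on NCBIM37, and the lists' coordinates ended within its chromosomes. Total reads per library were not used, so depth is unknown here. The genome was not repeat-masked, so repeat content was not computed. Named domains were the extremes of level, length, gap, KO-only summits, KO-gained H3K4me3 and Uhrf1 windows, and named genes came from fixed lists and families. The members and lists were chosen with earlier results of these data known.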

Additional observations from a re-analysis of the deposited data

Results flagged for a closer look

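The difference in mark frequency between KO and WT cells over the absent domains did not keep its direction across stages. In mESC the KO minus WT share was -4.17 percentage points for H3K4me3 and -52.8 for H3K27me3. At week 1 of EB culture the values were -0.399 and 2.88, at week 2 they were -6.80 and -25.6, and at week 3 they were 0.443 and -30.6. The week 1 and week 3 values for H3K4me3 were small, and the intervals of the WT and KO shares overlapped. Over all WT H3K9me3 domains under 300 kb the H3K4me3 values were -4.82, 0.458, -6.19 and 1.81 in the same order and the H3K27me3 values -53.6, 1.52, -34.5 and -28.5, so changes of direction across stages were also present in all domains. With 1 library per genotype and stage, the differences between stages were not tested. The lists also differed in size between genotypes and stages, and the part of that in these values was not tested.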

How the results depend on the processing

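Of 196 alternative values for 22 results, 150 lay within the interval of the main value. No alternative reversed an H3K4me3, Sox2, Nanog or gene-start difference. All differences here are length-averaged percentage points, absent minus retained. Among WT domains above the median level, H3K4me3 gave -18.58 in WT and -17.45 in KO mESC, and in EBs at weeks 1, 2 and 3 -13.01, -17.89 and -17.81 in WT and -12.67, -19.54 and -20.76 in KO. In that setting Uhrf1 windows gave 3.55, midpoints in genes -6.72, and KO EB H3K27me3 -1.47 at week 1 and 5.82 at week 2. Requiring 10% of a domain to be covered gave -14.12 and -14.06 for WT and KO mESC H3K4me3, and in EBs -7.44, -11.78 and -11.48 in WT and -7.24, -12.58 and -13.59 in KO. KO summits above median height gave -5.52 for Sox2 and -3.59 for Nanog. Gene starts within 2 kb gave -5.82. On autosomes alone, WT H3K27me3 at week 3 gave 12.50. The share of WT domains absent in KO was 45.7% above the median level, 48.5% under 100 kb and 40.2% with no length limit, against 42.1%.

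Alternatives chosen after seeing the data left out chromosomes 8, 11 and X or compared within chromosome and length group. Without those chromosomes, H3K4me3 gave -13.23 in WT and -13.11 in KO mESC, and in EBs -8.51, -11.71 and -12.42 in WT and -8.09, -13.16 and -14.71 in KO. KO-only Sox2 gave -7.30, gene starts -2.72, and H3K27me3 0.70 in WT and 3.35 in KO EBs at week 1 and 10.43 in KO at week 2. H3K27me3 in KO mESC turned to 0.0787. Within chromosomes, H3K4me3 gave -14.12 and -14.06, H3K27me3 in KO mESC -0.70, WT EB H3K27me3 at week 2 -0.85, and Uhrf1 windows turned to -0.55. The cause was not tested. No paired analysis was possible because each group had 1 library and the labels carry no replicate numbers.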
